A study of Mus musculus with 5 samples.

Results

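The proteasome subunit genes were taken as all gene symbols that begin with Psma, Psmb, Psmc or Psmd and a number, without the immunoproteasome genes Psmb8, Psmb9 and Psmb10, which left 37 of 22026 genes. Of these, 31 encode constitutive subunits of the 26S proteasome, with 14 of the 20S core (7 of the alpha ring and 7 of the beta ring) and 17 of the 19S regulatory particle (6 ATPases, 3 other subunits of the base and 8 of the lid). The other 6 genes are Psma8 and Psmb11, core paralogs known from other tissues, the base assembly chaperone genes Psmd5, Psmd9 and Psmd10, and Psmc3ip, which is no subunit.

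RNA-seq was done on 5 libraries of B6D2F1 mouse embryos at the 4-cell stage, made by nuclear transfer, in which a donor nucleus is placed in an oocyte that has lost its own. Each of 5 groups had 1 library, with no replicate, so no difference has a p-value or a replicate check. The groups were H3.3 knockdown embryos given H3.3 mRNA, knockdown embryos given H3.2 mRNA, knockdown embryos given neither, embryos treated with luciferase, and embryos with no treatment. For the second of these the treatment tag says H3.3 mRNA while the title and design text say H3.2 mRNA, and it is named here by its title. Histone H3.3 is the H3 variant that cells deposit throughout the cell cycle, and H3.2 is deposited when DNA replicates. The source name is NT for the H3.3 mRNA, knockdown and untreated libraries and SCNT for the H3.2 mRNA and luciferase libraries. The donor cell, the number of embryos in a library and the reagent used for the knockdown are not given in the sources used here. Values are FPKM, a read measure divided by transcript length and by the mapped reads of the library, which allows levels of different genes to be compared per length.

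The 26S proteasome degrades proteins that carry ubiquitin chains. Its 20S core is a stack of alpha and beta rings, with the proteolytic sites of Psmb5, Psmb6 and Psmb7 on the inner face of the beta rings. The 19S particle binds the ubiquitin chain, removes it and feeds the unfolded protein into the core through a ring of ATPases. In oocytes and early embryos proteasomes take part in the turnover of maternal proteins around the start of embryonic transcription.

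The summed H3.3 transcripts H3f3a and H3f3b were 467 FPKM with H3.3 mRNA, 420.1 FPKM with H3.2 mRNA and 664 FPKM in the knockdown, against 5734 FPKM in the luciferase and 5266 FPKM in the untreated library. The knocked-down gene pair was therefore low in all 3 libraries labelled as knockdowns, including the library labelled as given H3.3 mRNA. The sequencing depth is unknown. Of 13 oocyte and maternal marker genes, 13, 12, 13, 11 and 13 were above 0 with H3.3 mRNA, with H3.2 mRNA, in the knockdown, in the luciferase and in the untreated library, and Mos and Oosp1 supplied the zeros. Of 6 early embryo genes, 4 to 6 were above 0, and Nanog and Esrrb were at 0 in the knockdown. In the knockdown 5 of the 6 were at least 2-fold lower than in luciferase and 5 than in the untreated library, and none was higher. Of all 13144 genes averaging at least 1 FPKM, 32.6% and 29.2% were lower in those comparisons. All 7 fibroblast markers were at 0 in 4 libraries and summed to 6.71 FPKM in the luciferase library, and the sum of 7 cumulus or granulosa markers reached 4.85 FPKM at most. The 4 blood markers summed to 49.2, 0, 150.2, 18.1 and 231 FPKM in the same order, with Ptprc and Hbb-b1 at 0 throughout.

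Proteasome subunit transcripts were among the abundant transcripts of every library. The 31 subunits summed to 61871 FPKM with H3.3 mRNA, 48530.1 FPKM with H3.2 mRNA and 88447 FPKM in the knockdown, against 73165 FPKM in the luciferase and 82618 FPKM in the untreated library. Those sums made up 2.03%, 1.97%, 2.47%, 2.14% and 2.32% of all FPKM of each library, in that order. In each library 28 or 29 of the 31 subunits ranked among the 1000 highest genes. The median subunit stood at 1787, 1382, 2437, 2050.3 and 2143 FPKM in the same order. The library labelled H3.2 mRNA held the lowest level of 25 of the 31 subunits, while 39.8% of the 1494 genes averaging at least 500 FPKM were lowest there. That library also had the smallest FPKM total of the 5, at 2467000 FPKM, against 3578520 FPKM in the knockdown.

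**Figure D1:**
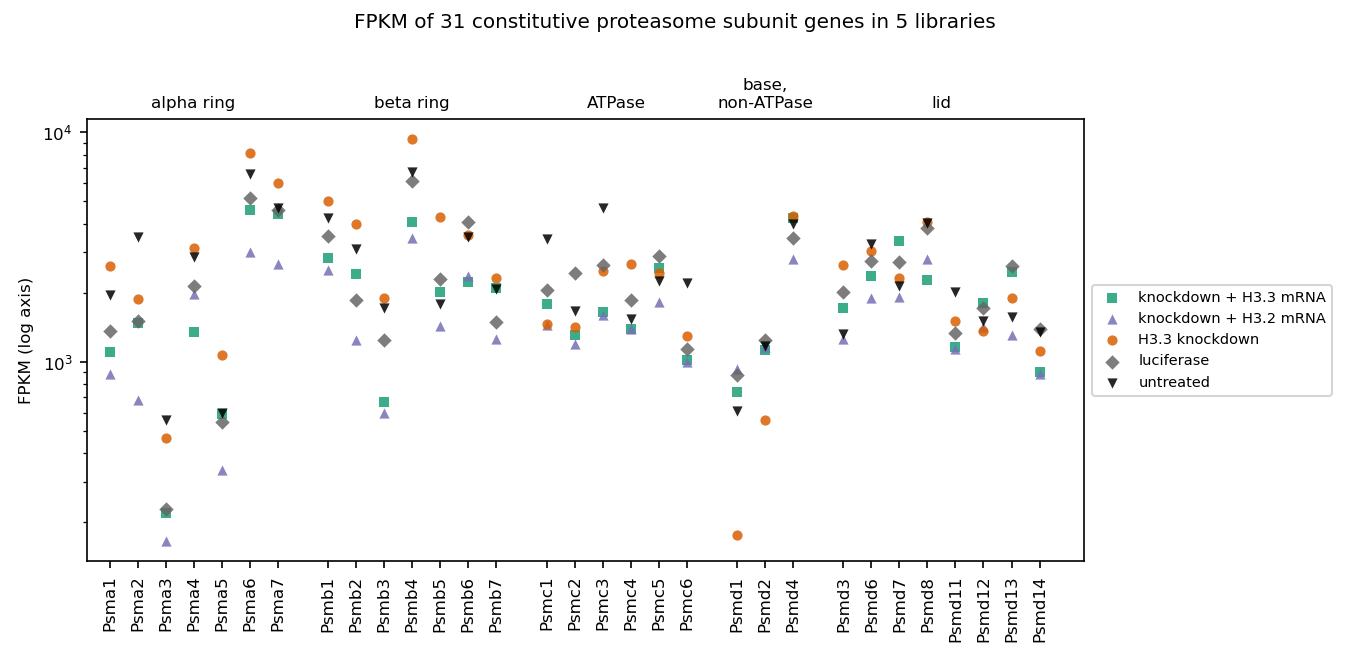
FPKM on a log axis of the 31 constitutive subunit genes, grouped by ring or particle, with 1 symbol for each of the 5 libraries. Psma3 lies lowest in the alpha ring in every library, and the knockdown symbol of Psmd1 lies apart below the others at 176 FPKM.

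Subunits of the same ring, which enter the core in equal number, did not have equal transcript levels. In the alpha ring Psma6 was the highest by its mean, at 4609, 2998 and 8106 FPKM with H3.3 mRNA, with H3.2 mRNA and in the knockdown, against 5175 and 6571 FPKM in the luciferase and untreated libraries. Psma3 was the lowest constitutive alpha subunit, at 219, 165 and 463 FPKM against 229 and 560.0 FPKM in the same libraries. The ratio of the highest to the lowest alpha subunit was largest in the luciferase library, at 22.6, and smallest in the untreated library, at 11.7. It was 3.92 to 6.10 in the beta ring, 1.84 to 3.05 among the ATPases and 2.87 to 3.71 in the lid. The order of the 31 subunits was similar between libraries, with Spearman's rho across the 31 genes from 0.72 (H3.3 mRNA and untreated) to 0.93 (H3.2 mRNA and luciferase). Over the 1494 genes of at least 500 FPKM the same measure ran from 0.48 to 0.76. The points of each correlation share a library on each axis, and genes are not independent replicates.

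The balance between core and 19S transcripts differed between libraries. The 14 core subunits summed to 53653 FPKM in the knockdown, against 36174 FPKM in the luciferase and 43874 FPKM in the untreated library. The 17 subunits of the 19S particle summed to 34794.5 FPKM in the knockdown, against 36991 and 38744 FPKM in those controls. The ratio of the core sum to the 19S sum was 0.943 with H3.3 mRNA, 0.871 with H3.2 mRNA and 1.54 in the knockdown, against 0.978 in the luciferase and 1.13 in the untreated library. The knockdown therefore had the highest ratio of the 5 libraries and the H3.2 mRNA library the lowest. The alpha to beta ratio had another order, 0.843, 0.754, 0.765, 0.755 and 0.897. A ratio within a library shows an unequal level, and does not tell which of its parts changed. In whole embryos, fewer cells with a transcript and less RNA per cell cannot be told apart.

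**Figure D2:**
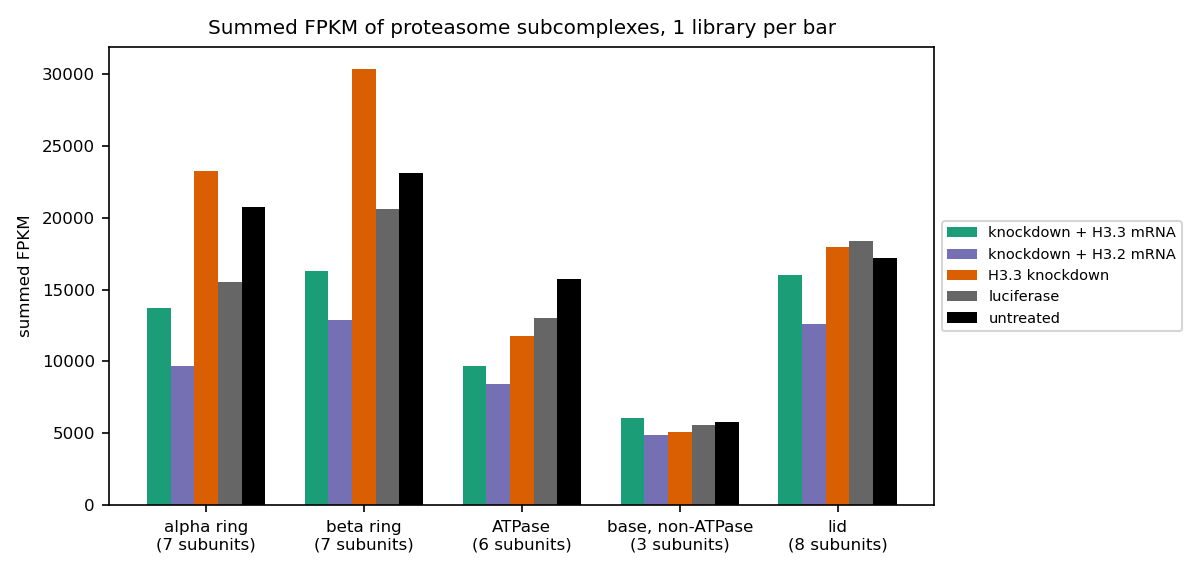
Summed FPKM of the subunits of each ring or particle, 1 bar per library, with no error since each group had 1 library. In the alpha and beta rings the knockdown bar is the highest, at 23261 and 30391 FPKM, while for the ATPases the untreated bar is the highest, at 15763 FPKM.

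The knockdown was first set against the luciferase control, which differs from it in source name as well. The 20S core subunits had a median difference of 0.62 on the log2(FPKM + 1) scale and were above the luciferase library at 13 of 14 genes, as were 55.9% of the 1494 genes of at least 500 FPKM. All 7 alpha subunits were above it, by 0.31 to 1.02, and Psmb6 was the core gene below it. The median was -0.18 for the 6 ATPases (4 of them lower) and -0.07 for the 8 lid subunits (4 lower). The core median was below 0, at -0.078 and -0.14, after a trend with transcript length was removed over genes of at least 1 or 50 FPKM, and was 0.20 when the trend used coding length. With those trends removed the median of all 13144 genes was -0.10, -0.10 and -0.15. That of genes of at least 500 FPKM was -0.13, -0.16 and -0.12. The core median was 0.27 with upper-quartile scaling, where that of genes of at least 500 FPKM was -0.17. The ATPase median was -0.60 and -0.66 with the transcript-length trends removed, and the lid median -0.45 and -0.50, while median-of-ratios scaling turned the lid median to 0.0086. Over all 37 genes the median was 0.33, against -0.12 over the 13144 genes averaging at least 1 FPKM and 0.17 over those of at least 500 FPKM, and upper-quartile scaling turned it to -0.015, with the median of all 13144 genes then at -0.45.

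At a 2-fold difference, 5 of the 37 genes were higher in the knockdown than in the luciferase library and 3 were lower. Of the 13144 genes, 21.5% were higher and 32.6% lower by that rule, and of the 1494 abundant genes 20.8% and 16.2%. The higher ones were Psma3, Psmb2, Psmb11, Psmc3ip and Psmd10, and the lower ones were Psmd1, Psmd2 and Psma8. The share of proteasome genes past 2-fold was thus no larger than that of all genes in either direction. Psmb11 and Psma8 lie near the floor, with means of 3.83 and 1.43 FPKM, and a filter at 5 FPKM left 4 genes higher and 2 lower. With upper-quartile scaling 2 were higher and 4 lower, and with quantile normalization 3 and 3.

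The untreated control has the source name of the knockdown, NT. Against it the core subunits had a median of 0.28, with 12 of 14 above 0 (50.5% of the 1494 abundant genes), and that median was -0.00486 and -0.18 with the trends of transcript length removed and 0.04 with that of coding length. With those trends removed the abundant genes had medians of -0.013, -0.16 and -0.13. The core median was 0.58 with upper-quartile scaling and 0.080 with quantile normalization, where the abundant genes had medians of 0.32 and -0.0064. The ATPases had a median of -0.50, which was -0.21 with upper-quartile scaling. The lid median was -0.04, and that scaling turned it to 0.26, next to the 0.32 of the abundant genes. At 2-fold, 4 of 37 genes were higher (Psmb5, Psmb11, Psmc3ip and Psmd3) and 4 lower (Psmc1, Psmd1, Psmd2 and Psmd5), against 25.6% and 29.2% of all genes and 15.2% and 14.7% of the abundant ones. A filter at 5 FPKM, which leaves out Psmb11, left 3 higher and 4 lower. With upper-quartile scaling 6 were higher and 1 lower. Over all 37 genes the median was 0.12, against 0.00 over all 13144 genes, and it turned to -0.056 with quantile normalization and to -0.049 and -0.17 with the transcript-length trends removed.

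Counted against both controls together, the knockdown level lay above each control at 15 subunits and below each at 7, while 38.7% and 32.3% of the 1494 abundant genes did so. Of the 15, 11 belong to the core. By the 2-fold rule no constitutive subunit was higher than both controls, and Psmd1 and Psmd2 were lower than both, where 11.3% of all genes were higher and 14.3% lower (6.89% and 7.43% of the abundant ones). The controls lie apart as well, with 2 of 37 genes at least 2-fold higher and 3 lower in the luciferase than in the untreated library, against 34.2% and 25.8% of all genes, and a core median of -0.38. Among the 1494 abundant genes 186 were higher and 261 lower. Upper-quartile scaling turned the core median to 0.26, with 8 of the 37 genes higher and 0 lower at 2-fold. The median of the abundant genes moved as well, from -0.10 to 0.54, and the core median lay below it in both settings.

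**Figure D3:**
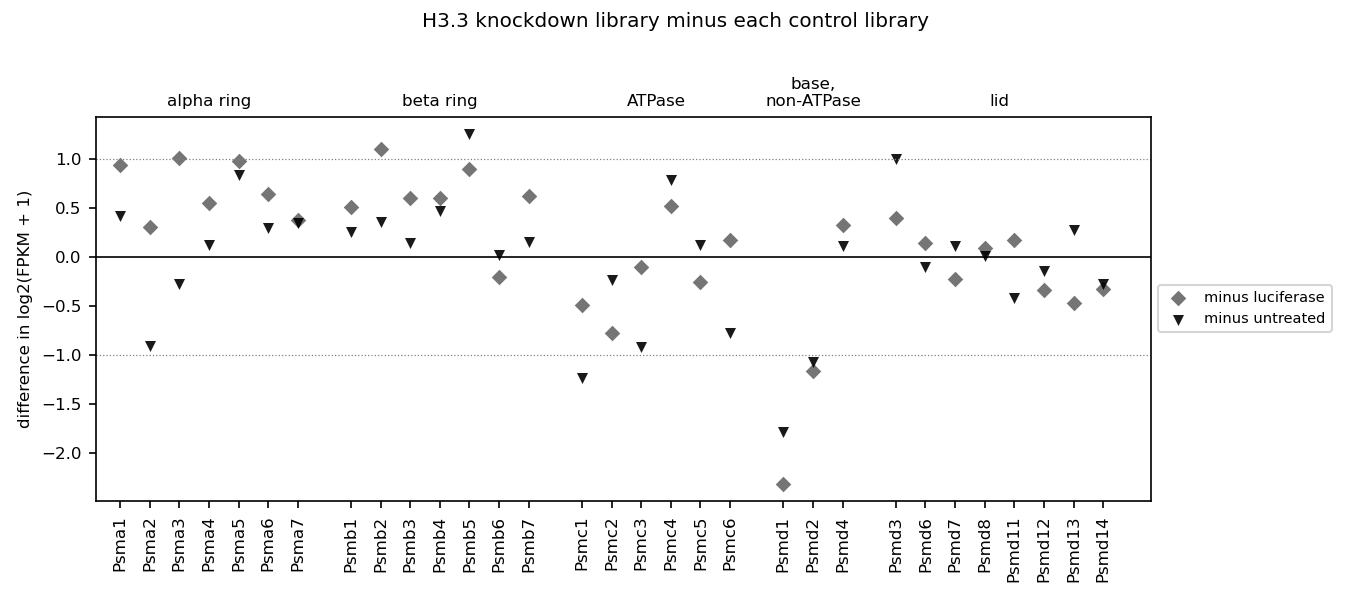
Difference in log2(FPKM + 1) of the H3.3 knockdown minus each control library for the 31 subunit genes, with dotted lines at a 2-fold difference. Most core subunits lie above 0 and within the dotted lines, Psmd1 lies at -2.31 and -1.78 and Psmd2 at -1.16 and -1.07.

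Among the catalytic subunits, the differences between libraries were uneven. Psmb5, the chymotrypsin-like subunit, stood at 2022, 1434 and 4289 FPKM with H3.3 mRNA, with H3.2 mRNA and in the knockdown, against 2303 and 1794 FPKM in the luciferase and untreated libraries. The knockdown level was 1.86 times the luciferase and 2.39 times the untreated level, though its difference from luciferase of 0.90 on the log2 scale became -0.050 and -0.11 with the trends of transcript length removed and 0.50 with that of coding length. Psmb6, the caspase-like subunit, stood at 2224, 2364 and 3557 FPKM, against 4086 and 3506 FPKM. It was highest in the luciferase library and differed between the knockdown and the controls by -0.20 and 0.02 on the log2 scale. With the transcript-length trend of genes of at least 50 FPKM removed these were -1.28 and -0.68, and with that of coding length -0.68 and -0.20. Psmb7, the trypsin-like subunit, stood at 2100.0, 1250.4 and 2308 FPKM, against 1491 and 2072 FPKM, and its knockdown level lay 0.63 and 0.16 above the controls on the log2 scale. The same corrections turned these to -0.17 and -0.32 for transcript length and left 0.27 and 0.017 for coding length. Psmb5, Psmb6 and Psmb7 have annotated pseudogenes, so reads could be shared with those copies and the levels are uncertain, and the same holds for Psma5.

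The beta subunit without a catalytic site that ranked highest was Psmb4, with 4050.5, 3474 and 9314 FPKM with H3.3 mRNA, with H3.2 mRNA and in the knockdown, against 6109 and 6721 FPKM in the luciferase and untreated libraries. Psmb4 was the most abundant of the 31 subunits in 4 of the 5 libraries, the knockdown and both controls among them. Psmb3, the lowest constitutive beta subunit, had 664.5, 596 and 1891 FPKM, against 1244 and 1713 FPKM. Both genes were highest in the knockdown and lowest with H3.2 mRNA, and the difference of Psmb4 from luciferase, 0.61, became -0.11 and -0.17 with the transcript-length trends removed and 0.21 with that of coding length. In all, 11 of the 14 core genes were highest in the knockdown, where 34.8% of the abundant genes were. With H3.2 mRNA 12 of 14 were lowest, as were 39.8% of the abundant genes. Psma2 and Psma3 were highest in the untreated library and Psmb6 in the luciferase library.

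The ATPases form the ring that unfolds substrates. Psmc3, the highest by its mean, stood at 1645, 1604 and 2478 FPKM with H3.3 mRNA, with H3.2 mRNA and in the knockdown, against 2654 and 4682 FPKM in the luciferase and untreated libraries. Psmc6, the lowest, stood at 1019, 994 and 1289.7 FPKM, against 1141 and 2209 FPKM. Both were highest in the untreated library, as was Psmc1, and Psmc4 was the ATPase gene with its highest level in the knockdown. All 6 were lowest with H3.2 mRNA, the library with the smallest FPKM total, where 39.8% of the abundant genes were lowest. Rescaled to the same total, 4 of the 6 were above the knockdown with H3.2 mRNA, and 2 were above luciferase.

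Psmd1 and Psmd2 are the large scaffold subunits of the base that hold receptors for ubiquitin and its shuttle proteins, and Psmd4 is a receptor for ubiquitin chains. Psmd1 stood at 739, 933 and 176 FPKM with H3.3 mRNA, with H3.2 mRNA and in the knockdown, against 874 and 608 FPKM in the luciferase and untreated libraries. It was the lowest of the 31 subunits in the knockdown, at 0.201 and 0.289 times the 2 controls. Psmd2 stood at 1128, 1159 and 555 FPKM, against 1245 and 1166 FPKM, so that its 4 libraries outside the knockdown lay within a narrow range, and the knockdown was at 0.446 and 0.476 times the controls. Psmd4 stood at 4214, 2792 and 4339 FPKM, against 3448 and 4004 FPKM, and differed from the controls by 0.33 and 0.12 on the log2 scale. With a coding-length trend removed, the differences of Psmd1 from the controls were -1.55 and -1.34, and those of Psmd2 were -0.44 and -0.63.

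In the lid, which carries the deubiquitinase of the particle, none of the 8 genes was 2-fold apart between the knockdown and luciferase, where 20.8% of the abundant genes were higher and 16.2% lower. Psmd8, the highest by its mean, stood at 2262, 2794 and 4084 FPKM with H3.3 mRNA, with H3.2 mRNA and in the knockdown, against 3838 and 4042 FPKM in the luciferase and untreated libraries. Psmd14, the deubiquitinase and the lowest of the lid, stood at 906, 883 and 1111 FPKM, against 1394 and 1346 FPKM. Both were lower in FPKM in the add-back libraries than in the other 3, and the H3.2 mRNA library also had the smallest FPKM total. With every library rescaled to the same total, the lid median of H3.2 mRNA minus knockdown was 0.062, with 5 of 8 genes above 0. Against luciferase, lid differences of the knockdown ran from -0.47 (Psmd13) to 0.40 (Psmd3), and against the untreated library from -0.41 to 1.001.

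Psmd1 and Psmd2 also have the longest coding sequences of the 31 subunits, 2859 and 2724 bases, against 603 to 831 bases in the core, 1167 to 1425 for the ATPases and 930 to 1590 in the lid, so these groups do not overlap the core in coding length. In longest annotated transcript they do, with Psma2 and Psma3 at 2911 and 2846 bases next to Psmd1 and Psmd2 at 3112 and 2961 bases. Which transcript forms these embryos held is not known, so a match in length is not shown. Psma2 and Psma3 differed between the knockdown and luciferase by 0.31 and 1.02, and Psmd1 and Psmd2 by -2.31 and -1.16. Across the 31 subunits, coding length and the difference between knockdown and luciferase had a Spearman's rho of -0.67, and across 1361 abundant genes with a coding length it was -0.60. Against the untreated library the values were -0.43 and -0.43. Within the core, where lengths are close, rho was 0.18 (n = 14). These are descriptions over genes of the same 2 libraries, and genes are not independent. Among the 283 other abundant genes of 600 to 900 coding bases, with the 31 subunits left out, the median difference from luciferase was 0.53, next to 0.62 for the core. Among 33 other abundant genes of 2500 to 3000 bases it was -1.32, and 6 of them lay at or below Psmd1. For the core minus 19S difference, the medians were 0.84 against luciferase and 0.43 against the untreated library, and 0.40 and 0.03 once the coding-length trend was removed. Between the controls, luciferase minus untreated, the same measure was -0.48, and -0.59 to -0.33 over the alternatives, so the controls differed in it as well.

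**Figure D4:**
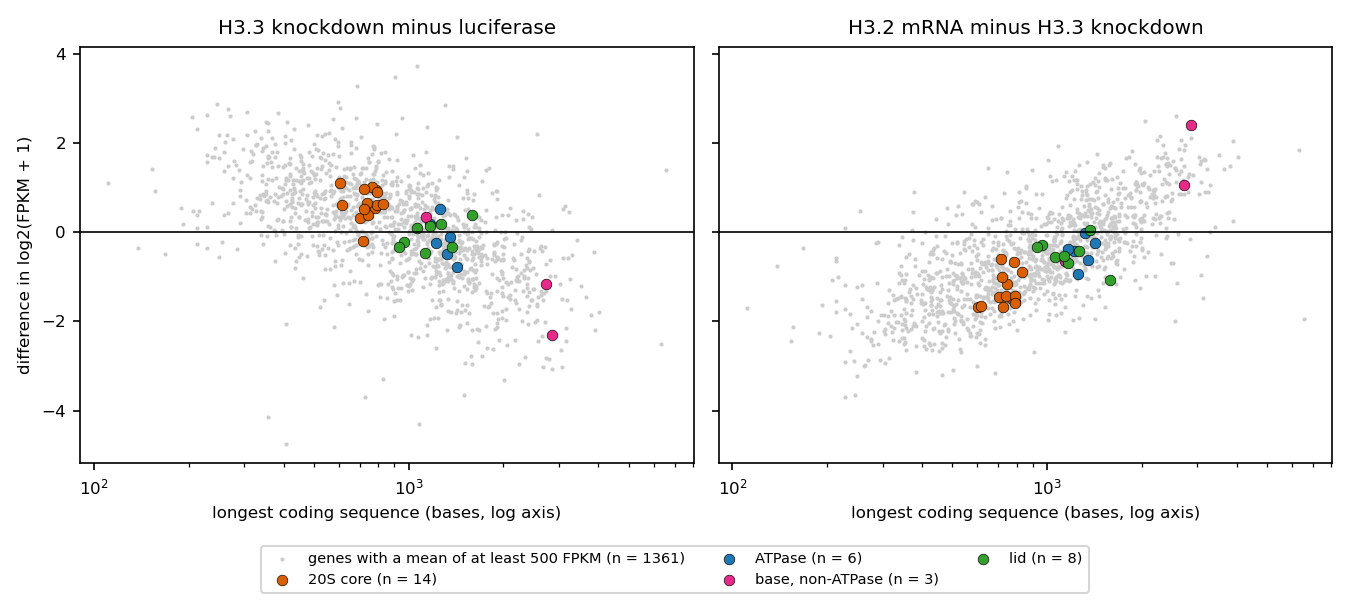
Difference in log2(FPKM + 1) against the longest coding sequence on a log axis, for 1361 genes averaging at least 500 FPKM (gray) and the 31 subunits (colored), as knockdown minus luciferase on the left and H3.2 mRNA minus knockdown on the right. Psmd1 lies at the long end at -2.31 and 2.40, or at -1.55 and 1.44 with the coding-length trend removed.

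The library labelled H3.3 mRNA was next set against the knockdown, both of source name NT. All 14 core subunits were lower with H3.3 mRNA, as were 60.8% of the 1494 abundant genes, and their median difference was -0.85. That median was -0.35 and -0.18 with the transcript-length trends removed, when 10 and 9 of the 14 were lower, and -0.24 with that of coding length, when 10 were. It was -0.55 with quantile normalization. The ATPases had a median of -0.23 and the lid one of -0.33. The ATPase median turned to 0.046 with quantile normalization, to 0.0058 with every library rescaled to the same total and to 0.017 with the transcript-length trend of genes of at least 50 FPKM removed. The lid median turned to 0.18 and 0.31 with the trends of transcript length removed. Psmd1 and Psmd2 were higher by 2.07 and 1.02, and by 1.13 and 0.12 with the coding-length trend removed. At 2-fold, 2 of 37 genes were higher and 8 lower, against 29.4% and 21.7% of all genes and 12.7% and 23% of the abundant ones, and quantile normalization left 2 higher and 3 lower. The median over the 37 genes was -0.45, against 0.00 over all genes and -0.29 over the abundant ones.

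The library labelled H3.2 mRNA lay further from the knockdown, and it differs from it in source name. All 14 core subunits were lower, as were 71.2% of the abundant genes, with a median of -1.45 and 11 of 14 at least 2-fold lower. With the transcript-length trends removed the median was -0.22 and -0.17 and 2 of 14 were 2-fold lower, and with that of coding length it was -0.84 and 3 of 14 were. Quantile normalization gave -0.65 and 3 of 14, and rescaling every library to the same total -0.91 and 5 of 14. The ATPases had a median of -0.40 and the lid one of -0.47, and these turned to 0.35 and 0.30 after quantile normalization and to 0.14 and 0.062 with every library rescaled to the same total. Psmd1 and Psmd2 were higher by 2.40 and 1.06, and by 1.44 and 0.14 with the coding-length trend removed. At 2-fold, 3 of 37 genes were higher and 15 lower, against 33.5% and 21.4% of all genes and 8.57% and 36.1% of the abundant ones, and with quantile normalization 3 were higher and 6 lower. The median over the 37 genes was -0.68, next to -0.61 over the abundant genes and 0.15 over all genes, and quantile normalization turned it to 0.14. Among the 283 other abundant genes of 600 to 900 coding bases the median was -0.94.

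**Figure D5:**
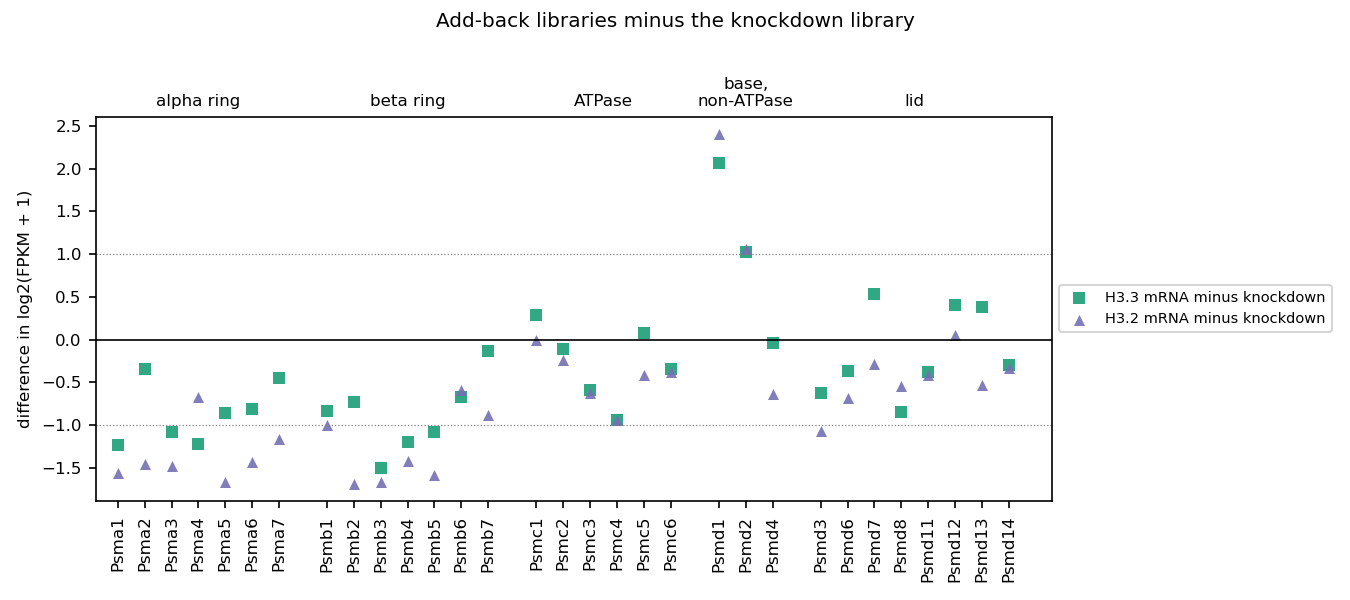
Difference in log2(FPKM + 1) of each add-back library minus the H3.3 knockdown library for the 31 subunit genes, with dotted lines at a 2-fold difference. All 14 core subunits lie below 0 in both comparisons, and Psmd1 and Psmd2 lie above the upper dotted line in both.

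Both add-back comparisons and both knockdown comparisons use the same knockdown library, so an unusual level there enters each of them. Against luciferase, with which it shares the source name SCNT, the H3.2 mRNA library had a core median of -0.69 and an ATPase median of -0.58, which quantile normalization brought to -0.087 and 0.0086. Psmd1 and Psmd2 differed by 0.09 and -0.10. At 2-fold 1 of 37 genes was higher and 4 lower, against 22.4% and 20.5% of all genes. Of the 1494 abundant genes, 21 were higher and 298 lower. The H3.3 mRNA library, against the untreated library of its own source name NT, had a core median of -0.62 and an ATPase median of -0.64, and 2 genes were higher and 8 lower at 2-fold, against 30.2% and 26.3% of all genes. Of the abundant genes, 157 were higher and 315 lower. With upper-quartile scaling the core and ATPase medians were -0.13 and -0.16, next to 0.29 over the abundant genes. By that scaling 4 of the 37 genes were higher and 2 lower. Between the add-back libraries, H3.3 mRNA minus H3.2 mRNA, the core median was 0.45 (0.067 with quantile normalization). At 2-fold 2 of the 37 genes were higher and 1 lower, against 18.9% and 24.2% of all genes. Among the abundant genes 260 were higher and 47 lower. The median over the 37 genes was 0.30, and it turned to -0.15 with quantile normalization and to -0.0040 with every library rescaled to the same total.

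Of the 6 genes outside the constitutive 26S particle, Psmd5 and Psmd9 had a highest level 2.99 and 2.23 times their lowest, within the range of 1.32 to 5.31 times of the constitutive subunits. Psmd10, a base assembly chaperone also called gankyrin, stood at 47.1, 83.4 and 233 FPKM with H3.3 mRNA, with H3.2 mRNA and in the knockdown, against 111 and 209 FPKM in the luciferase and untreated libraries. Its level with H3.3 mRNA was 0.202 times that of the knockdown. Psmd5, a chaperone of the same step, stood at 577, 593 and 575 FPKM, against 409.7 and 1225.5 FPKM, and was highest in the untreated library. Psmd9 stood at 172, 140.3 and 244 FPKM, against 251 and 314 FPKM, and was higher in both controls than in the other 3 libraries. Psmc3ip, which encodes a meiotic recombination partner of the recombinase Dmc1 and shares only part of its name with the ATPases, stood at 214, 146 and 536 FPKM, against 197 and 34.5 FPKM. Its knockdown level was 15.6 times and its luciferase level 5.73 times the untreated level. Psmb11, the beta subunit of the thymus proteasome, was at 10.3, 1.6 and 7.21 FPKM and was listed at 0 in both controls. Psma8, the alpha subunit of male germ cells, was listed at 0 with H3.3 mRNA, in the knockdown and in the untreated library, and stood at 4.53 FPKM with H3.2 mRNA and 2.64 FPKM in the luciferase library.

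The core is built by a separate set of chaperones, Psmg1 to Psmg4 and Pomp. Their 5 transcripts summed to 2871, 2249 and 5172 FPKM with H3.3 mRNA, with H3.2 mRNA and in the knockdown, against 2549.8 and 3699 FPKM in the luciferase and untreated libraries. The sum was highest in the knockdown, and length-corrected values are not given for these genes. In the knockdown 2 of 5 were at least 2-fold higher than in luciferase (Psmg3 and Psmg4) and 1 was at least 2-fold higher than in the untreated library (Pomp), and none was 2-fold lower. Of all 13144 genes 21.5% and 25.6% were higher in those comparisons. With H3.3 mRNA 1 of 5 and with H3.2 mRNA 4 of 5 were at least 2-fold lower than in the knockdown, and none was higher. Of all genes 21.7% and 21.4% were lower, and of the abundant genes 23% and 36.1%. Psmg4 stood at 124, 14.8 and 244 FPKM, against 76.6 and 206 FPKM, and was lowest with H3.2 mRNA.

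Of 2 further 19S subunits whose symbols fall outside the rule, Adrm1, a ubiquitin receptor, stood at 2414, 1421 and 2263 FPKM, against 2623 and 2632 FPKM, and the small subunit Shfm1 at 516, 227 and 907 FPKM, against 484 and 677 FPKM, in the same order of libraries. Shfm1 was highest in the knockdown, as were 34.8% of the abundant genes. A list drawn up for activators and an inhibitor of the core held 6 genes, Psme1 to Psme4, Psmf1 and AI314180. Of these, 2 were at least 2-fold higher in the knockdown than in luciferase and none lower. Against the untreated library none was higher and 1 lower. The shares of all genes higher and lower were 21.5% and 32.6% against luciferase and 25.6% and 29.2% against the untreated library. Psme4, the activator PA200, stood at 176, 312 and 84.7 FPKM, against 139 and 50.04 FPKM, and was highest with H3.2 mRNA. A list drawn up for ubiquitin receptors and deubiquitinases held 8 genes, Txnl1 among them. None was 2-fold higher in the knockdown than in luciferase and 1 was lower. Against the untreated library 1 was higher and 2 lower. Both counts stand next to the same shares of all genes.

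Nfe2l1 is the transcription factor that raises proteasome genes when proteasome activity is low, and Ddi2, Ngly1 and Vcp act in its release. Nfe2l1 stood at 241, 197 and 78.5 FPKM with H3.3 mRNA, with H3.2 mRNA and in the knockdown, against 258 and 129.9 FPKM in the luciferase and untreated libraries. Vcp, an ATPase that extracts ubiquitylated proteins, stood at 741, 962 and 325 FPKM, against 1026 and 750.3 FPKM. Both were lowest in the knockdown, as were 25.9% of the genes averaging at least 50 FPKM. Length-corrected values are not given for them. Ddi2, the protease of that pathway, stood at 131, 42.4 and 19.4 FPKM, against 26.3 and 8.16 FPKM, and was highest with H3.3 mRNA. Among the 5 genes of this list with Nfe2l2 included, none was 2-fold higher and 2 were lower in the knockdown than in luciferase, and 1 was higher and 2 lower than in the untreated library. Of all genes 21.5% were higher and 32.6% lower in the first comparison, and 25.6% and 29.2% in the second.

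Among 6 genes for ubiquitin and its activating enzymes, 1 was 2-fold higher and 2 lower in the knockdown than in luciferase, and none higher and 3 lower than in the untreated library, against 21.5% and 32.6% of all genes in the first comparison and 25.6% and 29.2% in the second. Ubb, a polyubiquitin gene, stood at 6824, 7678 and 14544 FPKM, against 9665 and 13489 FPKM. Uba1, the main ubiquitin-activating enzyme, stood at 2741, 1618 and 870.0 FPKM, against 2497 and 2743 FPKM, and was lowest in the knockdown, while Ubb was highest there. Length-corrected values are not given for Uba1 and Ubb. Of the immunoproteasome genes outside the rule, Psmb8 stood at 48.8 FPKM with H3.3 mRNA and 1107 FPKM in the untreated library. It was listed at 0 in the other 3. Psmb9 was above 0 in the untreated library alone, at 71.85 FPKM. Psmb10 was above 0 in every library. It stood at 115, 99.4 and 325 FPKM with H3.3 mRNA, with H3.2 mRNA and in the knockdown. Its levels in the luciferase and untreated libraries were 29.0 and 476 FPKM.

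Oocyte and maternal transcripts differed between libraries as well. The 13 markers summed to 9961, 6037 and 21364 FPKM with H3.3 mRNA, with H3.2 mRNA and in the knockdown, against 10747 and 19112 FPKM in the luciferase and untreated libraries. Both this sum and the core sum were highest in the knockdown, second in the untreated library and lowest with H3.2 mRNA. The FPKM totals of these libraries had that order as well, at 3578520, 3555710 and 2467000 FPKM, so the shared order shows no link. Most of the marker sum was Dppa3, a maternal gene that guards DNA methylation, at 19535 of the 21364 FPKM in the knockdown. The other 12 markers summed to 1411, 1219 and 1829 FPKM, against 490 and 5318 FPKM, so that the untreated library was highest and luciferase lowest, unlike the core. The part of maternal RNA in the core levels was not tested. Of the 13 markers, 9 were at least 2-fold higher and none lower in the knockdown than in luciferase, and 1 was higher and 8 lower than in the untreated library, against 21.5% and 32.6% of all genes in the first comparison and 25.6% and 29.2% in the second.

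The promoters of these genes were read to show what the core and 19S members carry, as a description beside their unequal levels. Sequences came from a RefSeq table of GRCm38.p6, in which 30 of the 37 genes matched, and Psma8, Psmb1, Psmb2, Psmb7, Psmc3, Psmd3 and Psmd7 did not. The 250 bases before each start were searched on both strands for 6 motifs. These were CGGAAG (bound by ETS factors), CCAAT (the CCAAT box), ATTGGCTG (a longer CCAAT box whose first 5 bases are CCAAT on the other strand), CACGTG (an E-box), TGACNNNGC and TGACTCAGC (a loose and a strict form of the antioxidant response element, the site class of Nfe2l1). Each match of the strict form is also a match of the loose one. A further 2 longer forms of that element were searched at first, were left out after their matches were seen, and are not reported here. CGGAAG was in 12 of 14 promoters of 19S subunits and 2 of 11 of core subunits, and in 13.8% of 27025 promoters of all genes. CCAAT was in 4 of 14 and 6 of 11, and in 34.2% of all promoters. TGACNNNGC was in 2 of 14 and 2 of 11, and in 10.1% of all, and ATTGGCTG and CACGTG each in 0 and 1 (3.77% and 5.93% of all). TGACTCAGC was in no member (0.344% of all). A match is a run of letters and not evidence of binding, and a missing match says nothing of a factor.

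The last 100 bases before the start are shown for 3 core genes and 3 19S genes, on the strand of the gene in the 5′ to 3′ direction. Capitals mark CCAAT, TGACNNNGC, or CGGAAG on either strand. Psmb4 was the most abundant subunit in the knockdown, and Psmb5 is the catalytic subunit that stood furthest above both controls. Psma2 holds a CCAAT box, and Psmc1 holds CGGAAG on the other strand at 3 places. Of the 31 subunits, only Psmd1 and Psmd2 had a knockdown level below both controls by the 2-fold rule.
Psma2, chr13:14613142-14613241, plus strand: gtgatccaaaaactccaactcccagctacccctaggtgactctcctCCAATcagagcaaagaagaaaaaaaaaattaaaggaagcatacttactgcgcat
Psmb4, chr3:94886959-94887058, minus strand: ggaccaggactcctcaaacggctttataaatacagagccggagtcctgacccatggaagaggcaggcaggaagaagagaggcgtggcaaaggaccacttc
Psmb5, chr14:54617996-54618095, minus strand: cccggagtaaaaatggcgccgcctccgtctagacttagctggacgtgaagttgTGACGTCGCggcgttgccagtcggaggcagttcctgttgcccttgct
Psmc1, chr12:100110102-100110201, plus strand: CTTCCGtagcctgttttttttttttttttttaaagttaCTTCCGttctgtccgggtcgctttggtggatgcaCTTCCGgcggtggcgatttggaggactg
Psmd1, chr1:86064519-86064618, plus strand: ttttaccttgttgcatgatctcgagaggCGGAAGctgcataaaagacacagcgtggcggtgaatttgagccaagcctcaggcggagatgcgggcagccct
Psmd2, chr16:20651552-20651651, plus strand: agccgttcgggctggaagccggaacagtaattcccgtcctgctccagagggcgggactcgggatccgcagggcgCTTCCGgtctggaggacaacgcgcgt

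In these windows, Psmb4 held none of the marked motifs, Psma2 and Psmb5 held 1 each, and Psmd1 and Psmd2 held CGGAAG once each, on opposite strands. Psmc1, with CGGAAG at 3 places, differed by -0.49 and -1.23 between the knockdown and the luciferase and untreated libraries, and Psmd1, with 1 such place, by -2.31 and -1.78. Whether these motifs bear on any level was not tested.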

How the data were processed

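RNA-seq was done on 5 libraries, 1 per group, from total RNA. Per the labels' protocols the kit was Illumina TruSeq with single-end reads of 51 bases. The submitters' processing notes name TopHat, Cufflinks and mm9, with no version. FPKM was deposited by the authors, 1 value for each of 22026 gene symbols. FPKM divides by transcript length and library total, so abundant genes of 1 library lower the rest. Depth is unknown, so no interval is given.

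Members, lists and the rule for named genes were chosen with earlier results of these data known. The rule names the catalytic subunits, the highest and lowest of each particle by mean, every gene at least 4-fold apart in a knockdown, add-back or control comparison, every gene listed at 0 anywhere, and each member that is no subunit. Genes named from the other lists, and the sequences shown, were chosen after their values were seen. Differences are of log2(FPKM + 1), with no test, over 13144 genes averaging at least 1 FPKM, and genes averaging at least 500 FPKM served as a second background. Lengths are the longest transcript and longest coding sequence of a symbol in GENCODE M21 (GRCm38), with a transcript length for 98.9% of genes. Length trends were fitted by lowess (fraction 0.5) and removed, which did not bring the median of all genes to 0. The computations used Python 3.11.15, pandas 2.3.3, scipy 1.17.1 and statsmodels 0.14.6 and were tested on simulated data. Alternatives were 11 planned settings and 3 chosen after seeing the data.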

Additional observations from a re-analysis of the deposited data

How the results depend on the processing

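No paired analysis was possible because each group had 1 library, and for the same reason no library could be left out within a group. The 14 alternatives changed the pseudocount, the filter, the scaling, the length correction or the gene set, and rescaling to the same total and both length trends over genes of at least 50 FPKM were chosen after seeing the data. A median was called at 0.25 or more from 0, and a value counted as moved when it shifted by more than 0.53 (a count, by over 1.5 times). That limit is the SD of luciferase minus untreated over 31 single subunits, which is wide for a median. The median of all 37 genes kept its direction in 129 of 140 cases, 18 of which shifted by 0.25 or more, and turned or stood at 0 in 11. Of those 11, 4 had a median under 0.25 to begin with, 3 of them knockdown minus untreated and 1 luciferase minus untreated. Core to 19S ratios within a library cannot change under a scaling by 1 factor. All differences below are the first library minus the second.

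With upper-quartile scaling, the median over the 37 genes was -0.015 for knockdown minus luciferase, 0.00 for H3.3 mRNA minus untreated, -0.041 for H3.2 mRNA minus untreated and 0.43 for luciferase minus untreated, where the core median was 0.26. In the same order, the medians of the abundant genes were -0.17, 0.29, 0.13 and 0.54. Genes 2-fold apart numbered 6 for H3.3 mRNA minus luciferase and 3 for H3.2 mRNA minus luciferase. They numbered 6 for each add-back library minus untreated and 8 for luciferase minus untreated. With quantile normalization, H3.2 mRNA minus knockdown had medians of 0.14 over the 37 genes, 0.35 for ATPases and 0.30 for the lid, H3.3 mRNA minus H3.2 mRNA had -0.15 over the 37 genes, H3.2 mRNA minus luciferase had 0.0086 for ATPases, and H3.2 mRNA minus untreated had -0.031 over the 37 genes. The 2-fold counts were 5 and 9 for H3.3 and H3.2 mRNA minus knockdown, 0 for H3.2 mRNA minus luciferase and 6 for H3.2 mRNA minus untreated. Rescaled to the same total, where the median of all 13144 genes stood at 0.60 and that of the abundant genes at -0.073, H3.2 mRNA minus knockdown had medians of -0.14 over the 37 genes, 0.14 for ATPases and 0.062 for the lid, and H3.3 mRNA minus H3.2 mRNA had -0.0040 over the 37 genes. The 2-fold counts were then 5 for knockdown minus luciferase, 5 and 9 for H3.3 and H3.2 mRNA minus knockdown, 0 for H3.2 mRNA minus luciferase and 6 for H3.2 mRNA minus untreated.

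With the transcript-length trend of all genes removed, knockdown minus luciferase had medians of -0.11 over the 37 genes and -0.078 for the core, with Psmb5 at -0.050 and Psmb4 at -0.11, knockdown minus untreated had -0.00486 for the core, and H3.3 mRNA minus knockdown 0.18 for the lid. With the trend of genes of at least 50 FPKM the same values were -0.17, -0.14, -0.11, -0.17, -0.18 and 0.31. For knockdown minus luciferase the median of all 13144 genes was -0.10 under either trend, and that of the abundant genes -0.13 and -0.16. The 2-fold counts with the trend of all genes were 5 for knockdown minus untreated, 3 and 5 for H3.3 and H3.2 mRNA minus knockdown and 2 for H3.2 mRNA minus luciferase, and with the other trend 4 and 6 for H3.3 and H3.2 mRNA minus knockdown, 2 for H3.2 mRNA minus luciferase and 9 for H3.2 mRNA minus untreated. With the coding-length trend they were 3 for knockdown minus luciferase, 2 and 8 for H3.3 and H3.2 mRNA minus knockdown and 5 for H3.3 mRNA minus untreated. The core median minus the 19S median of H3.2 mRNA minus knockdown was -1.03, and -0.35, -0.31 and -0.41 under the 3 trends. Genes past 2-fold against both controls numbered 4, and 2 under each trend and over the 31 subunits alone.

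Over the 31 subunits alone, 2-fold counts were 4 and 5 for knockdown minus luciferase and minus untreated, 1 for H3.3 mRNA minus H3.2 mRNA, 0 for H3.3 mRNA minus luciferase, 6 and 9 for H3.3 and H3.2 mRNA minus untreated and 2 for luciferase minus untreated, since 6 genes were left out. Filters at 5 and 50 FPKM or above 0 in every library gave 1 each for H3.3 mRNA minus H3.2 mRNA and minus luciferase, and a pseudocount of 10 gave 5 for knockdown minus luciferase, 1 for H3.3 mRNA minus H3.2 mRNA and 3 for H3.2 mRNA minus luciferase. Apart from the smaller gene sets, the cause was not tested. Subcomplex medians and single-gene differences that are not reported above were left out here after they had been computed, and some of them changed direction or moved.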
